A study of Homo sapiens with 6 samples.

Results

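The HOX genes are 39 genes in 4 clusters, taken as every gene of the count table named HOXA, HOXB, HOXC or HOXD followed by its paralog number, out of 48183 gene names in all. RNA sequencing of 6 libraries of human embryonic stem cells compared the naive with the primed pluripotent state. The 4 naive libraries were 2 of cells induced with AICAR, an activator of AMP-activated protein kinase (AICAR 1 and AICAR 2), 1 of cells induced by a doxycycline-controlled, constitutively active p38 kinase (CA-p38), and 1 of cells induced with VPA, a histone deacetylase inhibitor. The 2 primed libraries were the parental lines without naive induction. They were primed EOS, from which the AICAR and VPA cells came, and primed CA-p38, which carries the p38 transgene. When the CA-p38 line was made, it was treated with doxycycline and sorted for a fluorescent protein of the same construct. No doxycycline is described for its primed culture afterwards. All lines hold EOS, a reporter driven by the distal enhancer of OCT4. The labels name the line H1 and the text of the study names it H9. All naive cells were passaged after induction and before sequencing, and the study describes AICAR and doxycycline as withdrawn by then. It describes naive cells as expanded in PXGL medium on mouse embryonic fibroblast feeders, and CA-p38 cells as later moved to PXGL without feeders. On which of these the sequenced naive cells grew is not stated. Naive cells were sorted for CD75 and SUSD2 before RNA was extracted. Primed cells were grown on Matrigel in StemFit AK02N without feeders, and no sort of them before RNA extraction is described. State, medium, passage after induction, sorting and any feeders therefore cannot be told apart. The naive libraries are thus of 3 inductions and the primed libraries of 2 lines, with 1 library each except for AICAR. For the AICAR cells the study lists 2 consecutive passages. Nothing says which library is of which passage or whether AICAR 1 and AICAR 2 came from separate inductions. P-values therefore measure the spread between these libraries, which for the AICAR pair may be only that between passages of 1 induction.

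HOX genes encode homeodomain transcription factors that set position along the head-to-tail axis of the embryo. Within a cluster they lie in the order of their paralog groups, and in development the genes of low paralog number (anterior) are switched on earlier and nearer the head than those of high number (posterior). In pluripotent cells the clusters are known as targets of Polycomb repression, with a repressive and an activating histone mark on the same promoters.

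The labelled states were checked first. All 6 naive markers were higher in the naive libraries (summed level 1850 to 2150 CPM against 7.66 to 9.87 CPM, where CPM is the count scaled by library total and TMM factor to 1000000), although SUSD2, 1 of them, was also used in the sort. All 5 primed markers were lower (30.9 to 42.5 against 2370 to 2900 CPM). POU5F1, which encodes OCT4, stood at 1540 ± 61.6 CPM (SD, n = 4) in the naive state and at 1680 ± 46.2 CPM (SD, n = 2) in the primed state. The libraries held 46823699 to 54277064 counts.

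In GRCh38 the HOXA cluster, with 11 genes, spans chr7:27092993-27200091, and the HOXB cluster, with 10 genes, spans chr17:48528526-48728750. The HOXC cluster spans chr12:53938831-54056030 and the HOXD cluster chr2:176092721-176190907, with 9 genes each. RefSeq promoter windows (GRCh38.p14, 250 bases before to 50 after a transcript start) were at hand for 20 of the 39 genes, in 26 different windows. The median window held 22.5 CG dinucleotides, against 14 over 35116 windows of all genes, and 73.1% of the HOX windows held 15 or more, against 48.9% of all windows. The windows of 5 genes are shown with each CG in capitals, because they belong to the gene with the highest naive level among those with a window, to another well-detected gene, to a weakly detected gene and to a pair of genes at or near 0. The first is at chr2:176092471-176092770 on the plus strand, the second at chr7:27156626-27156925 on the minus strand, the third at chr17:48530962-48531261 on the minus strand, and the window shared by HOXC4 and HOXC5 at chr12:54016638-54016937 on the plus strand.
HOXD13: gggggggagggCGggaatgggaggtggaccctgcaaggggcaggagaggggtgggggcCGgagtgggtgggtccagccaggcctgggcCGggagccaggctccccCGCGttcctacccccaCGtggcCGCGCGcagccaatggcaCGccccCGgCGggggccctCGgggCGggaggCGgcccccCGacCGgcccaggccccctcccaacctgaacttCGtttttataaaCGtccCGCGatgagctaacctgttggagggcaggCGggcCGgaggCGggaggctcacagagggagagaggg
HOXA7: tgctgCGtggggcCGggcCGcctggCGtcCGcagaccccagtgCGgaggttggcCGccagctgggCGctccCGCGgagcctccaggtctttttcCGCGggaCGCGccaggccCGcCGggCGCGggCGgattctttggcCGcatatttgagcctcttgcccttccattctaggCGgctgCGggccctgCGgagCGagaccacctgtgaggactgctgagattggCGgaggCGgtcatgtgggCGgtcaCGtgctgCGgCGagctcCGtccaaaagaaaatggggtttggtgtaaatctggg
HOXB1: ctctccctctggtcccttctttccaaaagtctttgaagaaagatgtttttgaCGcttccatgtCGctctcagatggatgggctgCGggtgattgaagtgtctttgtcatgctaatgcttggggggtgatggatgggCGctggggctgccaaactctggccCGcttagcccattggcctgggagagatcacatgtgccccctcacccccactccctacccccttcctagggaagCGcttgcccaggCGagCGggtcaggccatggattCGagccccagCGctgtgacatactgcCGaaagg
HOXC4 and HOXC5: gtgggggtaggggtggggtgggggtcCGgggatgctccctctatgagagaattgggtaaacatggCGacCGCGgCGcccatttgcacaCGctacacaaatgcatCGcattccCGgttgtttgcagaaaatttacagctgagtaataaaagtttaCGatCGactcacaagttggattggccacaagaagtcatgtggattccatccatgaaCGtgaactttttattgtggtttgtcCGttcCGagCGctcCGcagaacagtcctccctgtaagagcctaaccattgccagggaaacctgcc
These windows held 24, 31, 11 and 15 CG. The highest number, 44, was in the window of HOXA13, and the lowest, 0, in 1 of the 7 windows of HOXA3. On either strand, TATAAA was found in 5 of the 26 windows (19.2%, against 11.5% of all windows), TGATNNAT in 3 (11.5% against 7.4%), TAATTA in 2 (7.7% against 4.84%) and AGGTCA in 0 (against 13.8%). The window of HOXD13 is among those with TATAAA, and the window of HOXB1 among those with TGATNNAT. A match of letters is a description and not a binding site.

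The first question was whether HOX transcripts differ between the states. They were scarce in the primed and readily counted in all 4 naive libraries. All HOX genes together had 9478 counts in AICAR 1 and 7608 in AICAR 2, while CA-p38 had 9011 and VPA 8958, against 49 counts for primed EOS and 55 for primed CA-p38. As a level this was 169 ± 11 CPM (SD, n = 4) against 1.05 ± 0.0926 CPM (SD, n = 2), a ratio of 160 with a 95% interval of 132 to 196 (exact binomial). Such intervals cover counting error only. The naive and the primed libraries did not overlap. Within the EOS line the ratio was 168 (127 to 228) and within the CA-p38 line 159 (122 to 211). No HOX gene reached 10 counts in a primed library, and 13 genes had 0 counts in both, which allows up to 0.0606 and 0.0613 CPM (3 counts in a library). These are bulk libraries, in which fewer cells of a type and less RNA per cell cannot be told apart.

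Of the 39 genes, 35 were tested and 32 were higher in naive cells at an adjusted p under 0.05 in edgeR's quasi-likelihood test. Over all genes tested 26% were higher and 27% lower. None of the HOX genes was lower, also with DESeq2 and limma-voom. All 35 passed the filter on low counts through the naive libraries alone and so had to differ to be tested, which is why their number is not read as a result. A count free of this filter uses all 39 genes: 31 of them (79.5%) had at least 10 counts in every naive library. Of the protein-coding genes with at most 8 counts in each primed library, the highest HOX count there, 11.9% did so with the HOX genes included (390 of 3284) and 11.1% without them (359 of 3245). At least 100 counts in every naive library were found for 11 HOX genes (28.2%) and for 102 of the 3245 other protein-coding genes of that kind (3.14%). Of the 14 HOX genes whose exons overlap no other gene on either strand, all were tested and 12 were higher. The limit of the filter holds for this number too, and it is not read as a result.

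**Figure D1:**
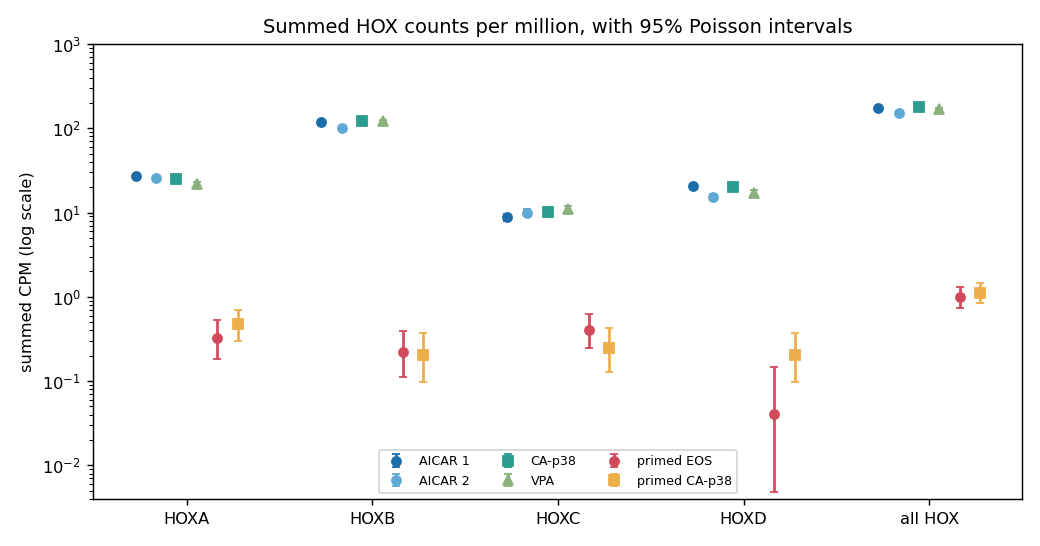
Summed HOX level in CPM on a log axis, by cluster and over all 39 genes, for each library, with exact 95% Poisson intervals. All naive libraries (AICAR 1, AICAR 2, CA-p38, VPA) lie above both primed libraries in each cluster, and HOXB has the highest naive sums.

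The clusters contributed unequally. HOXB held 68.5% of the HOX counts of the naive libraries on average, HOXA 14.8%, HOXD 10.7% and HOXC 5.92%. The HOXB sum was 118, 102, 123 and 121 CPM in AICAR 1, AICAR 2, CA-p38 and VPA, against 0.222 CPM for primed EOS and 0.204 CPM for primed CA-p38. The HOXA sum was 25 ± 2.26 CPM (SD, n = 4) in naive libraries, the HOXD sum 18.2 ± 2.45 CPM and the HOXC sum 9.98 ± 0.869 CPM. The ratio of naive to primed was 544 (356 to 880) for HOXB, 150 (85.7 to 290) for HOXD, 63.1 (46.1 to 88.9) for HOXA and 30.7 (21.7 to 45) for HOXC. HOXB2 and HOXB3 together held 54.7% of all HOX counts. Without the member of highest count the naive sums were 61.5 CPM for HOXB, 10.2 CPM for HOXD and 7.47 CPM for HOXC.

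The anterior genes, of paralog groups 1 to 3, are known for patterning the hindbrain. In the sentences that follow, counts are given for AICAR 1, AICAR 2, CA-p38 and VPA, in that order, and then for primed EOS and primed CA-p38. HOXB2 (ENSG00000173917, chr17:48540894-48545109) had 3026, 2209, 2953 and 3109 counts against 3 and 0. Its naive level was 54.5 ± 6.86 CPM (SD, n = 4), the highest of the 39 genes, and its log2 fold change was 10.69 with a standard error of 0.38 (adjusted p = 2.22e-10). The ratio of its counts was 1790 (613 to 8690). HOXB3 (ENSG00000120093, chr17:48548870-48604912) had 2143, 1739, 1993 and 2025 counts against 3 and 1. It differed least among the naive libraries after HOXB7, with a coefficient of variation of 5.56%, and its log2 fold change was 9.79 with a standard error of 0.30 (adjusted p = 6.2e-11). HOXA3 had 124, 94, 104 and 76 counts against 0 and 1, with a ratio of 189 (33.8 to 7500), an interval as wide as a single primed count makes it. For these genes each naive library lay far above both primed ones.

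The other anterior genes were weaker. HOXD1 had 35, 30, 38 and 64 counts against 1 and 5, with a ratio of 13.2 (5.96 to 36.6). HOXD3 had 30, 20, 20 and 26 counts against 0 and 0, which is at least 15.2-fold higher when 3 counts are allowed to both primed libraries together, the floor used for every such bound here. The lowest values of this class were those of HOXA2 and HOXB1, and both varied widely among naive libraries. HOXA2 had 9, 15, 25 and 1 counts against 0 and 0. HOXB1 had 13, 28, 8 and 39 counts against 0 and 2. Both were called (adjusted p = 0.0153 and 0.00905), but the adjusted p of HOXA2 was 0.0831 without primed EOS, 0.0839 without primed CA-p38 and 0.0697 with limma-voom, and that of HOXB1 was 0.0746 without primed EOS.

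The central genes, of paralog groups 4 to 8, are known for patterning the neck and trunk. HOXB7 stood out, with 635, 548, 615 and 574 counts against 0 and 4. Its level was 11.5 ± 0.573 CPM (SD, n = 4), the steadiest of the HOX genes among naive libraries with a coefficient of variation of 5%. HOXB4, known for promoting the growth of blood stem cells, had 203, 240, 195 and 262 counts against 0 and 2. HOXA7 had 206, 215, 203 and 189 counts against 0 and 2, and 62.5% of its exon length is shared with the antisense HOXA-AS3. In all 3 genes the spread between naive libraries was small beside the distance to the primed ones.

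Further central genes lay between 14 and 155 counts in each naive library. HOXA4 had 88, 89, 123 and 127 counts against 0 and 0, at least 67.7-fold higher. HOXD8 had 155, 86, 127 and 117 counts against 0 and 1. HOXB6 had 116, 88, 102 and 64 counts against 1 and 0. All 3 were thus detected in every naive library and at most by a single count in primed cells. HOXD4 had 68, 35, 55 and 46 counts against 0 and 0, at least 32.3-fold higher. HOXB8 had 18, 25, 23 and 14 counts against 3 and 1, with a ratio of 9.51 (3.57 to 35.8). The call of HOXB8 (adjusted p = 0.00894) was lost without primed CA-p38 (adjusted p = 0.0857).

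The 7 genes that were not called were all central. HOXC5 had 0 counts in every library and HOXC4 1 to 4 counts in naive libraries and 0 in primed ones. HOXB5 had 0, 0, 1 and 11 counts, and HOXA6 had 2, 0, 8 and 3 counts against 3 and 1. These 4 were too low to be tested. HOXA5 had 10, 43, 13 and 12 counts against 8 and 5, with a ratio of 2.85 (1.58 to 5.6) and an adjusted p of 0.158. HOXC8 had 8, 15, 17 and 14 counts against 7 and 5, with a ratio of 2.14 (1.13 to 4.4) and an adjusted p of 0.264. HOXC6 had 7, 17, 12 and 26 counts against 3 and 3, with a ratio of 4.92 (2.13 to 13.9) and an adjusted p of 0.0541. HOXC6 passed the threshold with library totals as scaling (adjusted p = 0.0465), when both AICAR libraries were added up (0.0388) and when AICAR 1 was left out (0.0317). HOXA5 and HOXC8 were also the genes with the most counts in primed cells, 13 and 12 over both libraries.

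**Figure D2:**
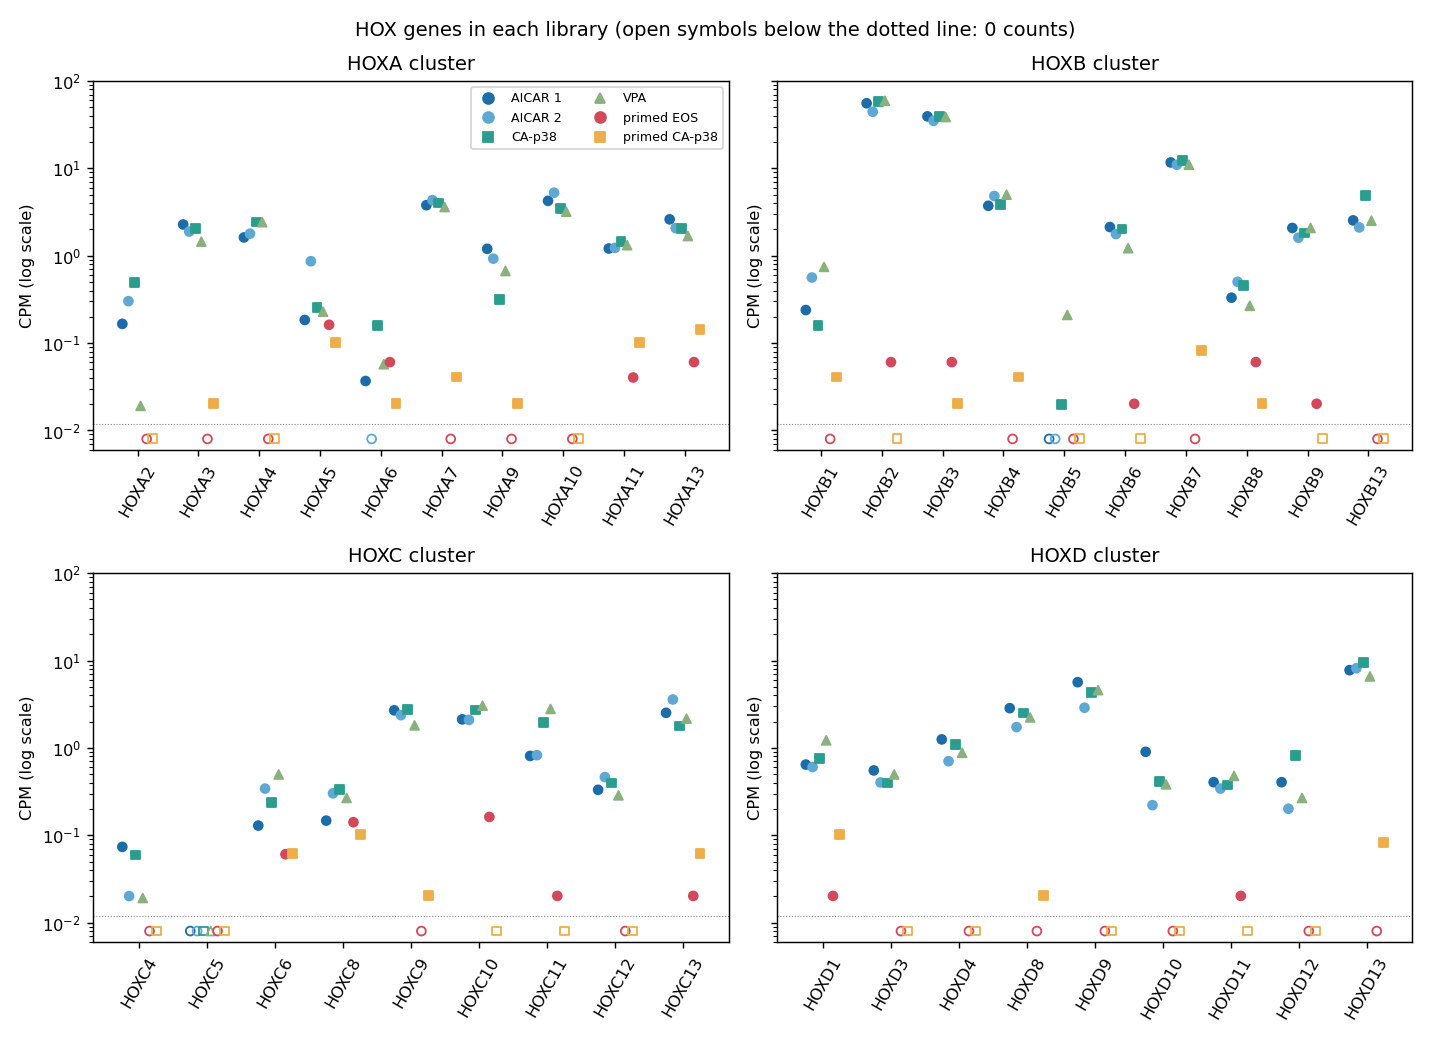
Level of the HOX genes in each library, in CPM on a log axis, with 1 panel per cluster and genes in the order of their paralog number. Open symbols below the dotted line stand for 0 counts. HOXB2 and HOXB3 lie highest, and in HOXC5 no library has a count.

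The posterior genes, of paralog groups 9 to 13, are known for patterning the hindmost trunk, the limbs and the genital tract. HOXD13, a regulator of digit formation and the last gene of its cluster, had 422, 406, 480 and 344 counts against 0 and 4. Its level was 8 ± 1.21 CPM (SD, n = 4) and its ratio 196 (76.6 to 722). HOXD9 had 307, 143, 217 and 240 counts against 0 and 0, at least 144-fold higher. HOXA10, which acts in the uterus, had 231, 262, 176 and 167 counts against 0 and 0, at least 133-fold higher. The naive counts of these 3 genes, in all libraries, lay above 100.

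HOXB13, known from prostate and hindgut, had 138, 105, 246 and 132 counts against 0 and 0, at least 98.5-fold higher, with CA-p38 above the other naive libraries. HOXC13, a regulator of hair and nail, had 137, 178, 90 and 113 counts against 1 and 3. HOXC10 had 115, 104, 137 and 159 counts against 8 and 0. With its 8 counts, all in primed EOS, HOXC10 had a ratio of 30.6 (15.4 to 71.3). HOXC9 had 146, 118, 140 and 95 counts against 0 and 1. HOXA13 had 142, 103, 104 and 88 counts against 3 and 7, with a ratio of 20.8 (11.2 to 43.7). HOXB9 had 113, 80, 92 and 109 counts against 1 and 0. In each of these 6 genes every naive library had 80 or more counts and every primed library 8 or fewer.

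The remaining posterior genes were lower. HOXA11 had 66, 61, 74 and 69 counts against 2 and 5, with a ratio of 18.3 (8.78 to 46.1). HOXC11 had 44, 41, 99 and 146 counts against 1 and 0, so that both AICAR libraries were below CA-p38 and VPA. HOXA9 had 65, 46, 16 and 35 counts against 0 and 1, lowest in CA-p38. The groups of libraries did not overlap in these genes either. HOXD10 had 49, 11, 21 and 20 counts and HOXD12 22, 10, 41 and 14 counts, each against 0 and 0, at least 16-fold and 13.8-fold higher. HOXC12 had 18, 23, 20 and 15 counts against 0 and 0, at least 12-fold higher. HOXD11 had 22, 17, 19 and 25 counts against 1 and 0.

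Levels were compared between genes per kilobase of exon. HOXB2 came first, with 22.2 CPM per kb (18.1 to 24.2 over the 4 naive libraries), followed by HOXB7 with 7.54 (7.21 to 8) and HOXB3 with 5.13 (4.71 to 5.31). These 3 did not overlap one another. HOXD13 with 3.31 (2.72 to 3.93) lay below them and overlapped HOXD9 (2.32), and HOXD9 overlapped HOXB4 (2.18). No naive library of HOXB4 was as low as the highest one of HOXA7 (1.63). From there each gene overlapped the next in the order, down to HOXC4. The level did not run evenly along a cluster. In HOXB, HOXB5 (0.0309 CPM per kb) lay between HOXB4 (2.18) and HOXB6 (0.686), and HOXB1 (0.172) stood beside HOXB2. In HOXC, the genes of groups 4 to 8 ran from 0 to 0.109 CPM per kb, and those of groups 9 to 13 from 0.113 to 1.45. Paralog group 5 had the lowest summed level of the 13 groups, 0.441 CPM over its 3 genes, and group 12 the next, 0.79 CPM over its 2 genes.

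**Figure D3:**
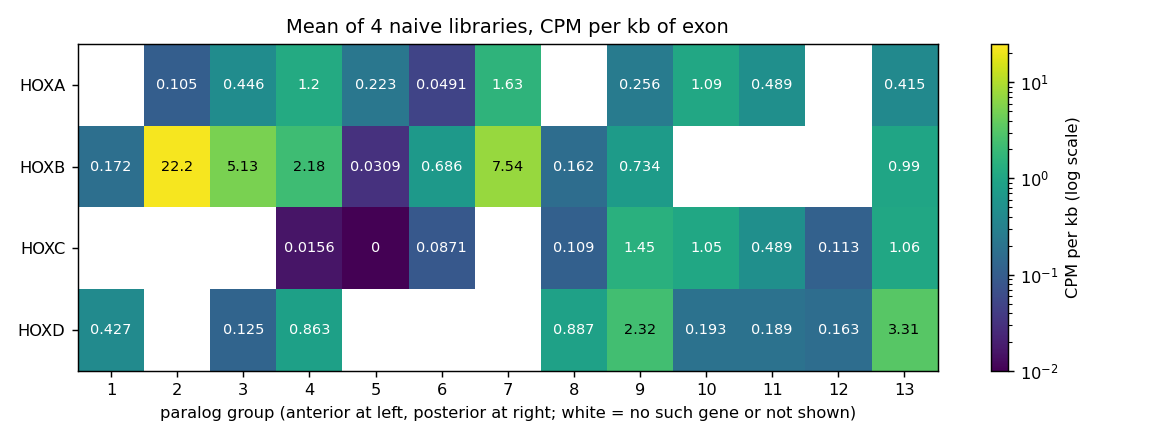
Mean level of the HOX genes over the 4 naive libraries, in CPM per kb of exon, by cluster (rows) and paralog group (columns), with colours on a log scale and values at or under 0.01 in the darkest colour. White fields have no gene or are not shown, HOXB2 holds the highest value, 22.2, and the columns of groups 5 and 12 hold no value above 0.223.

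The naive libraries were alike in which HOX genes they held. Spearman's rho over the 39 genes was 0.91 to 0.95 for the 6 pairs of naive libraries, which share gene lengths and the cell line. The HOX sum was lowest in AICAR 2, at 153 CPM against 171 to 178 CPM in the others, and the spread of the sum was 11 CPM (SD, n = 4). Of the genes, 15 had a coefficient of variation under 20% among naive libraries and 10 had one over 50%. With 1 or 2 libraries for each way of induction, no test between them was made.

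Whether the difference between states itself differed between the EOS and CA-p38 lines was tested as an interaction. The naive cells of the CA-p38 line were induced by CA-p38 and those of the EOS line by AICAR or VPA. Line and way of induction therefore cannot be told apart in this term. In edgeR 0 of 35 HOX genes passed an adjusted p of 0.05, and 1 of all genes tested did. Of the HOX genes 4 were at an unadjusted p under 0.05, and with limma-voom 0 were. Of the 4 combinations of state and line, 3 hold a single library, and the spread comes from the 3 naive EOS libraries alone, which are of AICAR and VPA induction. The single libraries are assumed to vary like these, and with 2 residual degrees of freedom a missed threshold does not show that the lines were alike. The primed lines had 55 and 49 HOX counts, a ratio of primed CA-p38 to primed EOS of 1.14 (0.759 to 1.71).

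Noncoding transcripts of the clusters were described next. Of 18 such transcripts 13 were tested, 11 were higher in naive cells and 0 lower, but, as with the HOX genes, those tested had passed the filter through the naive libraries alone and so had to differ. HOXB-AS4, with 9 counts in primed EOS and 0 in each naive library, could not be tested. HOXB-AS1, which lies antisense to HOXB2 and HOXB3, had 19.4, 17.2, 21.2 and 25 CPM in AICAR 1, AICAR 2, CA-p38 and VPA, against 0.0404 CPM for primed EOS and 0.0204 CPM for primed CA-p38 (log2 fold change 9.3, adjusted p = 7.58e-10). HOTAIRM1, a long noncoding RNA of the HOXA cluster, had 2.59 ± 0.669 CPM (SD, n = 4) against 0.0304 ± 0.0141 CPM (SD, n = 2). HOXA-AS3 had 1.99 ± 0.474 against 0.0914 ± 0.0136 CPM, and HAGLR, antisense to HOXD1, 1.74 ± 0.285 against 0.0101 ± 0.0143 CPM. HOTAIR was called (adjusted p = 0.0115), but not with limma-voom (0.0565) or without primed CA-p38 (0.0859), and HOXC13-AS (adjusted p = 0.0302) was not with limma-voom (0.105), without CA-p38 (0.0724) or without primed CA-p38 (0.188). The distal transcript HOTTIP had at most 0.121 CPM in any library. Of the 39 HOX genes 25 share exon sequence with another gene, and whether the counting used strand is not given in the sources used here, so reads of such pairs cannot be assigned with certainty.

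Genes beside the clusters changed in both directions. Of 12 neighbours 9 were tested, 1 was higher and 3 were lower (26% and 27% over all genes tested). Their median log2 fold change was -0.21, whether PRAC1 was taken as fitted or at its lower bound. CBX5, which encodes a heterochromatin protein, fell from 389 ± 10.9 CPM (SD, n = 2) to 54.2 ± 4.48 CPM (SD, n = 4) (log2 fold change -2.84, adjusted p = 2.07e-10). MTX2 beside HOXD had 41.4 ± 5.06 against 37.1 ± 2.88 CPM (adjusted p = 0.353), and HIBADH beside HOXA 34.5 ± 5.64 against 29.6 ± 4.56 CPM (adjusted p = 0.288). SMUG1 beside HOXC had 13 ± 0.799 against 15.1 ± 0.675 CPM (adjusted p = 0.274). The neighbour that rose was PRAC1, which lies between HOXB9 and HOXB13, with 0.478, 0.282, 0.752 and 1.39 CPM against 0 and 0 (adjusted p = 0.000525). With 0 counts in primed cells, PRAC1 passed the filter through the naive libraries alone. LNPK, at the end of HOXD, was lower at an adjusted p of 0.0429, a call lost without primed EOS (0.392), without AICAR 1 (0.0775) or AICAR 2 (0.0918), with the parental line as a block (0.0559), with library totals as scaling (0.0935) and with both AICAR libraries added up (0.0733). EVX1, the homeobox gene beyond HOXA13, was too low to be tested and had 0 CPM in each naive library against 0.121 and 0.879 CPM.

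**Figure D4:**
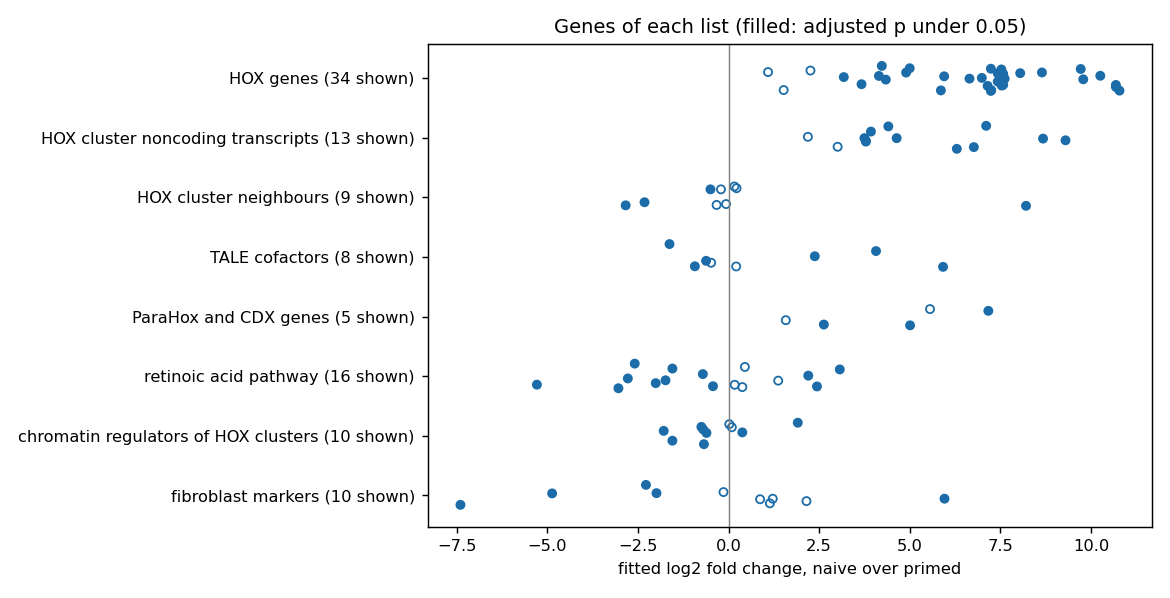
Fitted log2 fold change of naive over primed for tested genes of each list, 1 point per gene shown, filled where the adjusted p was under 0.05. The HOX genes and the noncoding transcripts of their clusters lie right of 0, whereas neighbours, cofactors, retinoic acid genes and chromatin regulators lie on both sides.

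TALE homeodomain proteins bind DNA together with HOX proteins. Of the 9 genes of this list 3 were higher and 4 lower in naive cells (26% and 27% over all genes tested). The median of their log2 fold changes was -0.48. PBX4 had 63.8, 48.2, 62.2 and 67.6 CPM against 1.01 and 0.981 CPM and rose (log2 fold change 5.92, adjusted p = 2.47e-10). MEIS2 rose from 0.519 ± 0.162 CPM (SD, n = 2) to 8.74 ± 1.95 CPM (SD, n = 4), and MEIS1 from 0.387 ± 0.233 to 2.02 ± 0.981 CPM. PBX2 fell from 126 ± 14.8 to 66.2 ± 3.64 CPM and MEIS3 from 69.6 ± 3.28 to 22.4 ± 1.05 CPM. PBX3 had 39.6 ± 2.12 CPM in the naive state against 34.1 ± 0.555 CPM (adjusted p = 0.149).

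The CDX genes encode regulators of posterior HOX genes, and the ParaHox genes are relatives of HOX outside the clusters. Of 6 such genes 5 were tested and 3 were higher, and all 5 had passed the filter through the naive libraries alone, so that none could be called lower. CDX1 had 1.78, 2.9, 1.56 and 1.93 CPM against 0 and 0.123 CPM (adjusted p = 7.71e-05), and CDX2 1.66, 1.97, 2.45 and 1.18 CPM against 0.0202 and 0 CPM (adjusted p = 5.77e-06). PDX1 had 0.896 ± 0.375 CPM (SD, n = 4) against 0.142 ± 0.0587 CPM (SD, n = 2). CDX4, highest in primed CA-p38 with 11 counts, could not be tested.

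Retinoic acid is a known inducer of HOX genes. Of 17 genes of its pathway 16 were tested, 3 were higher and 9 lower (26% and 27% over all genes tested). Their median log2 fold change was -0.57. Both enzymes of synthesis that rose, RDH10 and ALDH1A3, had 38.1 ± 3.99 against 7 ± 2.67 CPM and 17.3 ± 2.7 against 3.78 ± 0.686 CPM. Of the related enzymes, ALDH1A1 fell, to 0.239 ± 0.172 from 1.97 ± 0.132 CPM (adjusted p = 0.00123), and ALDH1A2 was not called (adjusted p = 0.686). STRA6, a gene of retinol uptake, fell to 3.04 ± 0.953 from 20.9 ± 1.76 CPM. The receptor gene RARB rose to 2.92 ± 0.571 from 0.345 ± 0.141 CPM. Also among those that fell were the binding protein CRABP1 (3.44 ± 0.753 against 135 ± 10 CPM) and the receptors RXRA (13.5 ± 1.7 against 39.5 ± 0.253 CPM), RARG and RARA. CYP26A1, an enzyme that degrades retinoic acid, fell as well (1.26 ± 0.81 against 7.57 ± 3.91 CPM). CRABP2 was lower at an adjusted p of 0.0316, which was 0.446 without primed EOS, 0.0591 without AICAR 2, 0.0515 without CA-p38, 0.0902 with library totals as scaling and 0.126 with the AICAR libraries alone as the naive group. DHRS3, a retinal reductase (adjusted p = 0.0235), lost its call without primed EOS (0.0705) or primed CA-p38 (0.128), with library totals (0.0511) and with the AICAR libraries alone (0.0735).

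Of 10 chromatin regulators known to act on HOX clusters, 2 were higher and 6 lower (26% and 27% over all genes tested). Their median log2 fold change was -0.64. JARID2, a partner of Polycomb repressive complex 2, fell from 447 ± 34 CPM (SD, n = 2) to 130 ± 8.59 CPM (SD, n = 4). Its catalytic subunit EZH2 fell from 95.6 ± 12.5 to 59.8 ± 8.26 CPM and EED from 30.3 ± 1.93 to 17.9 ± 1.31 CPM. The insulator protein gene CTCF fell from 152 ± 25.8 to 93.9 ± 9.04 CPM and the activator gene KMT2A from 91.6 ± 22.8 to 31.3 ± 2.37 CPM. KDM6B, a demethylase of the Polycomb mark, rose from 26.4 ± 15.2 to 99 ± 5.31 CPM. MEN1, a partner of KMT2A, had 75 ± 4.19 against 70.5 ± 6.93 CPM (adjusted p = 0.522). SUZ12 was higher (adjusted p = 0.019) at 75 ± 6.18 against 57.5 ± 7.23 CPM, a call lost without AICAR 1 (0.0508), without CA-p38 (0.0616), without primed EOS (0.217) and with the AICAR libraries alone (0.0717).

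HOX genes are also expressed by fibroblasts and by cells that differentiate, so markers of such cells were read beside them. Over all genes tested 26% were higher and 27% lower, and the numbers called in these lists stand beside those shares. Of 11 fibroblast markers 10 were tested, 1 was higher and 4 lower in naive cells. For the tested markers the fitted log2 fold changes centred on a positive median, 0.37. Among those not called, COL3A1, LUM, DCN and PRRX1 had positive values (1.22, 2.15, 0.87 and 1.14) and COL6A3 a negative one (-0.14). The 4 called lower were COL1A1, COL1A2, POSTN and PDGFRB (-1.99, -2.28, -4.87 and -7.4). The summed level of the list was 58.8 to 97.6 CPM in the naive state against 198 to 218 CPM. The primed sum was mainly of COL1A1 and COL1A2, at 59.8 ± 0.176 and 117 ± 9.14 CPM (SD, n = 2), so it says little about the other markers. COL1A1 and COL1A2 fell, to 15 ± 8.67 and 24.1 ± 6.52 CPM, COL3A1 was highest in CA-p38 at 16.6 CPM against 3.57 to 7.04 CPM in the other naive libraries (adjusted p = 0.0707, and 0.0187 without VPA), and LUM was at 0 in AICAR 2 and VPA. FAP was at 0 in all libraries except AICAR 2 (0.0402 CPM). The marker that rose was TWIST1, at 20, 18.3, 19.9 and 18.1 CPM against 0.343 and 0.266 CPM. Of 8 primitive streak and mesoderm markers 3 were higher and 2 lower (sum 79.9 to 87.5 against 50.3 to 60.4 CPM), with WNT3 at 61.7 ± 3.75 against 7.53 ± 3.68 CPM and TBXT at 2.01 ± 0.352 against 0.388 ± 0.463 CPM. The lower ones were GBX2 and EOMES, and the call of EOMES was lost without primed CA-p38 (adjusted p = 0.283). Of 8 neural markers 1 was higher and 3 lower (sum 95.8 to 100 against 436 to 518 CPM), and MAP2 was at 0 in CA-p38. Of the lower ones EGR2 (adjusted p = 0.0157) lost its call without primed CA-p38 (0.352), with the parental line as a block (0.0666) and with the AICAR libraries alone (0.0534). Of 5 endoderm markers 1, GATA4, was higher and 3 were lower (sum 11.7 to 17.8 against 9.83 to 32.9 CPM), and without primed CA-p38 GATA6 was called higher too (adjusted p = 0.0335). Of 6 trophectoderm markers 4 were tested and 3 were higher, namely GATA2, HAND1 and KRT7 (sum 15.2 to 16.8 against 3.84 to 5.4 CPM), and VGLL1 was at 0 in 3 naive libraries. The call of KRT7 was lost without either primed library (adjusted p = 0.0814 and 0.0742) and with the AICAR libraries alone (0.18). The part of such cells in the HOX counts was not tested.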

How the data were processed

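The authors deposited whole-number read counts per Ensembl gene for 6 bulk libraries of polyadenylated RNA, made with a stranded kit. Per their methods, adapters were trimmed and reads were mapped with Bowtie2 to Ensembl transcripts of GRCh38, coding (cDNA) and noncoding. Reads were then counted by gene above a threshold of mapping quality. The submitters' processing notes name Trim Galore 0.4.4, cutadapt 1.15, RSEM and limma. The deposited counts were not normalized. Not used here were 23 further columns, from other studies, and 26 spike-in sequences with at most 1 count in a library.

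Counts of identifiers sharing a name were summed to 48183 names; each HOX gene has 1 identifier. Naive (n = 4) and primed (n = 2) libraries were compared with edgeR 4.0.16 (R 4.3.3; glmQLFit, then glmQLFTest, on TMM-scaled counts without covariates; genes were kept by filterByExpr within states at a minimum count of 10), with Benjamini-Hochberg adjustment over the 26497 genes tested and a threshold of 0.05. The common dispersion was 0.0563. Standard errors were derived from the F statistic of that test. Fitted log2 fold changes of genes at 0 in primed cells depend on the prior count and are not bounds, so bounds against 3 counts and ratios with exact (Clopper-Pearson) 95% intervals are given beside them. Gene models came from GENCODE release 44 and promoters from RefSeq. Python 3.11.15 with scipy 1.17.1 was used for the remaining steps, and the scripts were tested on simulated data. AICAR 1 and AICAR 2 are not 1 library deposited in duplicate, since their counts differed by more than sampling noise (chi-square per gene 21.1, against 19.8 to 35.9 for other naive pairs). This does not show that they are of separate inductions, and the fit with both summed is among the alternatives.

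The members and lists were chosen with earlier results of these data known. Every HOX gene past the threshold or with a mean of at least 0.5 CPM is given by library; the others are given by counts, and some items are not reported here. Of each other list, up to 4 genes with the highest mean CPM are named, with those on which its sentence turns. Alternatives covered scaling, test (DESeq2 1.42.0, limma-voom 3.58.1), filter, parental line as a block, single identifiers, summed AICAR libraries and each library left out. The AICAR libraries alone against primed, and identifiers on GENCODE chromosomes only, were added after seeing the data.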

Additional observations from a re-analysis of the deposited data

Results flagged for a closer look

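In 3 HOX genes 1 naive library stood apart from the other 3 by Dixon's criterion, which flags about 1 in 20 groups by chance; 39 genes were examined. HOXA5 had 0.865 CPM in AICAR 2 against 0.184 to 0.257 CPM in the other naive libraries. HOXB13 had 4.87 CPM in CA-p38 against 2.11 to 2.54 CPM. HOXB5 had 0.21 CPM in VPA, which is 11 counts, against 0 to 0.0198 CPM.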

How the results depend on the processing

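The number of HOX genes higher in naive cells was 32 and ran from 30 to 33 over 16 alternatives, from 30 to 33 with each library left out, and was 33 with both AICAR libraries added up; 0 were lower in each. With at least 10 counts required in every library no HOX gene was left to test, so this alternative gave no value for them. Over the alternatives, 35 HOX genes had 554 fitted values, of which 546 kept their direction and side of the threshold, 5 lost the call, 3 gained it and 0 changed sign. These genes passed the main filter through the naive libraries alone. The 0 lower calls and 0 changes of sign are therefore not read as support for the direction. Without the member of highest count, the naive mean of the summed CPM was 61.5 in place of 116 for HOXB, 7.47 in place of 9.98 for HOXC, 10.2 in place of 18.2 for HOXD and 115 in place of 169 for all HOX genes, by construction. The interaction with the parental line cannot be told apart from one with the way of induction. In it the HOX genes at an unadjusted p under 0.05 went from 4 to 0 with limma-voom. For GATA6, which was not called (log2 fold change 0.10), the fitted value was 2.12 without primed CA-p38 and -0.72 without primed EOS, the highest and lowest with a library left out, and -0.10 with both AICAR libraries added up; the cause was not tested. The labels give naive and primed libraries no shared replicate numbers, but they tie each to its parental line. With the line as a block 32 HOX genes were higher, and of the genes named here LNPK (adjusted p = 0.0559) and EGR2 (0.0666) lost their calls. At 46823699 to 54277064 counts a library, single counts decide the size of the primed levels, and 2 primed libraries limit their spread.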

Other observations

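Homeobox genes outside the clusters were looked at after their values had been seen. Of 49 genes of the DLX, LHX, NKX, PAX and IRX families and the sine oculis homologues 41 were tested, 21 were higher in naive cells and 4 lower, and their summed level was 219 to 253 CPM in the naive state against 114 to 127 CPM. Over all genes tested 26% were higher and 27% lower. Of the 41 genes, 4 had 0 counts in both primed libraries and so passed the filter through the naive libraries alone. The numbers called are therefore not read as a result about these families.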
